A study of Mus musculus with 10 samples.

Results

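The genes of MHC class I presentation and of cross-presentation were followed in splenic cDC1s of 4 genotypes. The set was a list of 33 symbols, looked up by name, and it was chosen with earlier results of these data known. A member was measured where the array had a probe set (a group of probes reported as 1 value) annotated to that gene and no other, which held for 30 of the 33 among 19938 genes tested. H2-K1 and H2-D1, which encode the classical class I heavy chains, had only probe sets shared with each other, and Lnpep, an endosomal aminopeptidase, had none in the gene table used here. By role, 2 of 4 class I molecules and regulators, 8 of 8 genes of peptide loading in the endoplasmic reticulum (ER), 5 of 5 immunoproteasome genes, 6 of 6 genes of the phagosome oxidase and of acidification, and 9 of 10 genes of traffic and antigen handling were measured.

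The arrays measured total RNA of cDC1s from mouse spleen: 3 arrays of wild-type (WT) cells, 3 of cells labelled Zeb2 KO, 2 labelled Nfil3 Zeb2 DKO and 2 labelled Zeb2 Id2 DKO. All groups other than WT are thus labelled as lacking Zeb2, and the double knockouts as lacking Nfil3 or Id2 in addition. The alleles, any Cre driver, the age of the mice, the sort gate and whether replicates came from separate animals are not given in the sources used here. A p-value below therefore speaks only of how much these arrays vary, which may be technical. In bulk RNA, fewer cells of a type and less RNA per cell cannot be told apart.

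MHC class I molecules show peptides from inside the cell to CD8 T cells. Proteasomes cut proteins into peptides, the TAP transporter carries these into the ER, and a loading complex places them on class I heavy chains paired with beta-2 microglobulin. cDC1s are known for cross-presentation, in which protein taken up from dead cells is presented on class I. In this route the phagosome oxidase slows the digestion of cargo, and traffic between ER and phagosome brings loading factors and cargo together.

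Start regions of 5 members, of which Tap1 and Psmb9 share 1, are shown because they carry the interferon and ZEB motifs searched and because these genes are described in detail below. All are from RefSeq on GRCm38.p6, 5′ to 3′ on the strand named, with motif letters in capitals. Tap1 and Psmb9 start back to back, and the 225 bases between their starts on chr17:34187331-34187555 (plus strand, reading towards Tap1) hold a CAGGTG E-box, the core motif bound by ZEB factors. Upstream of B2m on chr2:122147537-122147686 (plus strand) lies an interferon-stimulated response element (ISRE, searched as GAAA, any 2 bases, then GAAA). Upstream of Ncf1 on chr5:134229626-134229775 (minus strand) a gamma-activated site (GAS, searched as TTCNNNGAA) overlaps an ISRE. Upstream of Cybb on chrX:9469325-9469499 (minus strand) lie 3 ISRE matches, some in reverse orientation.
Tap1 and Psmb9: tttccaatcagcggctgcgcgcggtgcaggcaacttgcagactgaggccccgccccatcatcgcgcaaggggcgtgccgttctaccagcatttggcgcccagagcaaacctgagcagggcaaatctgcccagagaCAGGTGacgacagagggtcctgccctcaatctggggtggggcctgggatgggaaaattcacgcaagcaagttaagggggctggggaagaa
B2m: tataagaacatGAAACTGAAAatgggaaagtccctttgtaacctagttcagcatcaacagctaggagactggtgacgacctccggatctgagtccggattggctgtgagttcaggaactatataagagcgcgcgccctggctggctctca
Ncf1: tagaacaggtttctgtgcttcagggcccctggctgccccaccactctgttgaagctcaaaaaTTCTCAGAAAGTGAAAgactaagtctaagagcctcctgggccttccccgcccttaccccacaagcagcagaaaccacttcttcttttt
Cybb: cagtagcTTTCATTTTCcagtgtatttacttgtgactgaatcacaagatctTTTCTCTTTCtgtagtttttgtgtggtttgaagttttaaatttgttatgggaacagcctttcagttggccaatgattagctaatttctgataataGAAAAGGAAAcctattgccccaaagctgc

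Promoters of 300 bases (250 before the start and 50 from it on) were found for 27 of the 33 listed symbols, and both strands were searched. An ISRE match was present at 5 of the 27 genes (18.5%: B2m, Erap1, Psme1, Cybb and Ncf1) against 3.99% of all 27018 genes with a promoter. For comparison, 10 of 18 interferon-stimulated genes (55.6%) had one. A GAS match was present at 3 genes (11.1%: Psmb8, Ncf1 and Vamp8) against 9.55% of all genes. The E-box was present at 5 (18.5%: Tap1, Psmb9, Cyba, Tfeb and Ifi30) against 22.6%, and the motif TTANGTAA of NFIL3 at 1 (3.7%: Sec61b) against 2.72%. These are matches of letters, not sites shown to be bound.

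The labels were checked against the targeted genes. Nfil3 was 14.3-fold lower in Nfil3 Zeb2 DKO than in WT (log2 fold change -3.84, limma adjusted p = 0.000622), and Id2 was 39.6-fold lower in Zeb2 Id2 DKO (-5.31, adjusted p = 6.58e-09). Zeb2 itself did not pass the test in any group labelled as lacking it. Against WT it was at -0.16 in Zeb2 KO (limma adjusted p = 0.929), at 0.27 in Nfil3 Zeb2 DKO (adjusted p = 1.0) and at 0.72 in Zeb2 Id2 DKO (adjusted p = 0.184), where both arrays lay above all WT arrays. The loss of Zeb2 is therefore not shown by these arrays. Zeb2 was already low in WT, at log2 levels from 5.93 to 6.30, against 10.15 to 10.43 for Id2. In Zeb2 Id2 DKO, Id2 read 5.01 and 4.98. A fall of Zeb2 thus had little room to show, and how large a fall could be seen was not tested. The Zeb2 probe set may also not cover the deleted part, in which case its level checks nothing about the deletion. The mean log2 intensity of 8 cDC1 markers lay between 11.12 and 11.27 in every array. Single markers differed within that mean: in Zeb2 Id2 DKO against WT Cadm1, an adhesion molecule, fell by 0.87 (limma adjusted p = 0.00225), Cd8a was at -0.52 and Itgae at 0.56 without passing, and 4 of 8 had an unadjusted p under 0.05. Arrays of the same genotype correlated at 0.986 to 0.997. Zeb2 KO replicate 3 stood apart (mean correlation with its group 0.987), with 3 members over 0.5 log2 from its group's mean. Some of the results that rest on it are given with and without it.

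Only Rac2 and Ncf1 among the 30 members passed the test in any comparison, at an adjusted p of 0.05 in limma. In Zeb2 KO against WT 0 of 30 passed, where 0.0201% of all genes did. There 1 member had an unadjusted p under 0.05 (7.39% of all genes did), and 2 members had arrays that did not overlap between the groups (10.4%). In Nfil3 Zeb2 DKO against WT 0 of 30 passed (0.00502% of all genes), 2 had an unadjusted p under 0.05 (4.16%) and 4 had no overlap (23.8%). In Zeb2 Id2 DKO against WT 1 passed, Rac2, which fell. Of all genes 1.43% passed there and 0.557% as lower, while 4 members had an unadjusted p under 0.05 (10.2% of all genes) and 9 had no overlap (31.4%).

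Between the mutant groups the adjusted calls were again 0 or 1, while more members had an unadjusted p under 0.05 when Zeb2 Id2 DKO was compared. Nfil3 Zeb2 DKO against Zeb2 KO gave 0 of 30 in limma (0.00502% of all genes), 1 at an unadjusted p under 0.05 (8.5%) and 4 without overlap (22.1%). Zeb2 Id2 DKO against Zeb2 KO gave 1, again Rac2 and again lower (0.497% of all genes, 0.13% as lower), with 7 at an unadjusted p under 0.05 (7.35%) and 9 without overlap (20.2%). Zeb2 Id2 DKO against Nfil3 Zeb2 DKO gave 1, Ncf1, which was higher (0.792% of all genes, 0.582% as higher), with 7 at an unadjusted p under 0.05 (11.5%) and 15 without overlap (52.4%). Across the 4 genotypes 0 of 30 passed limma's F test (0.757%), with 7 at an unadjusted p under 0.05, a share of 23.3% against 10.5% of all genes. These comparisons share arrays and are not independent of each other.

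Most of the members' fold changes were small. Their median log2 fold change lay between -0.0179 and 0.0137 in the 6 comparisons, but rises and falls can cancel in it. Without sign the median was 0.020 to 0.094, against 0.072 to 0.106 over all genes. The members' value was the larger only in Zeb2 Id2 DKO against Zeb2 KO (0.094 against 0.084). Single values ran from -0.65 to 1.03, both those of Cybb. The 95% interval lay within a 2-fold change for 30 of 30 members in Zeb2 KO against WT (98.7% of all genes) and for 29 in each double knockout against WT (98.9% with Nfil3 lost and 97.2% with Id2 lost). Between mutant groups it did so for 30 in Nfil3 Zeb2 DKO against Zeb2 KO (98.5%), for 29 in Zeb2 Id2 DKO against Zeb2 KO (97.9%) and for 28 in Zeb2 Id2 DKO against Nfil3 Zeb2 DKO (96.8%).

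**Figure D1:**
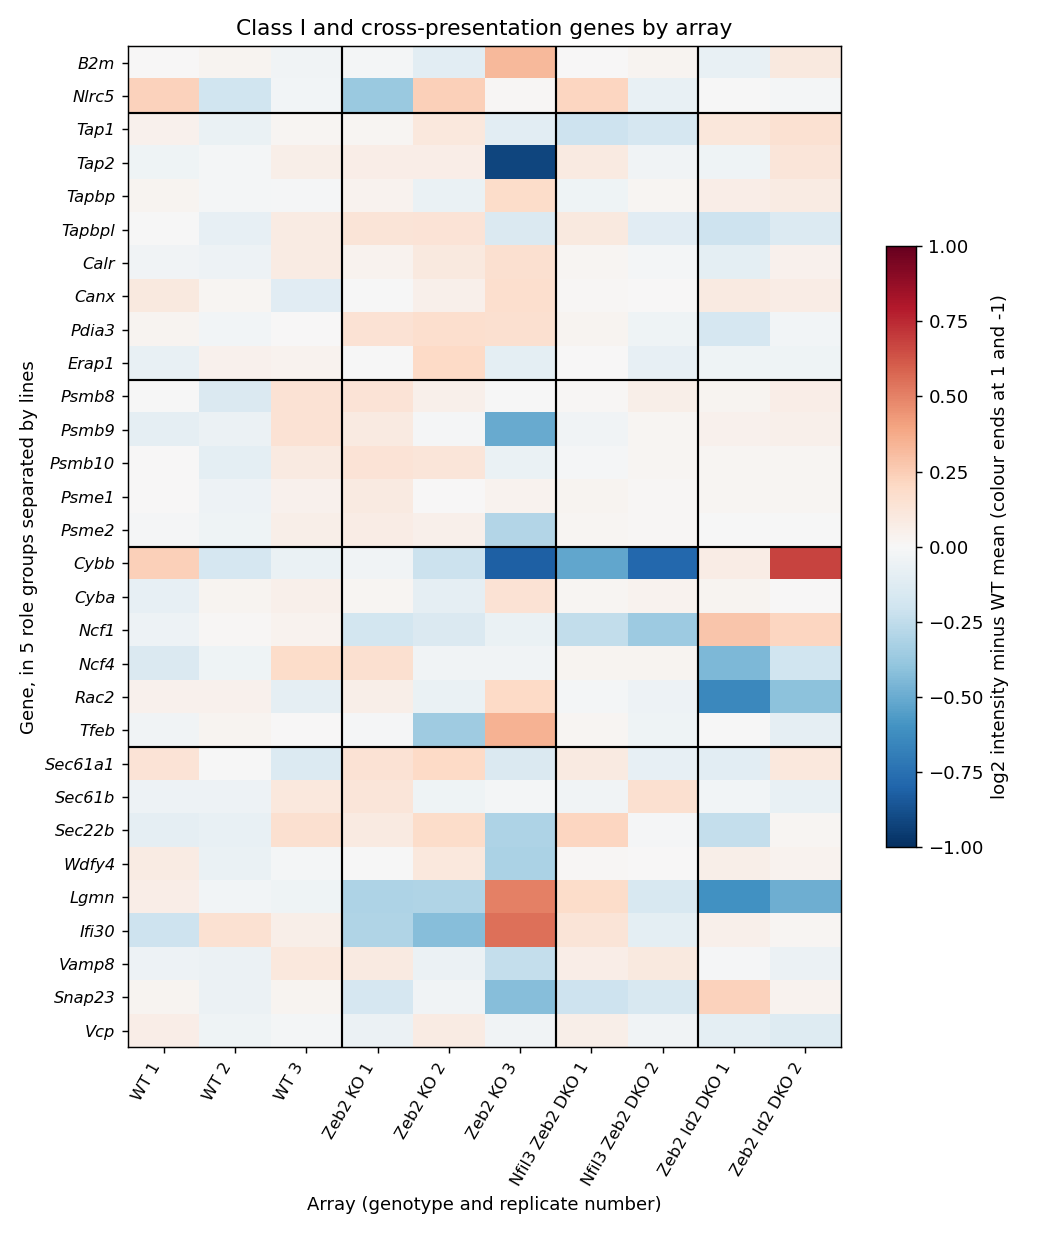
Log2 intensity of each of the 30 members minus its WT mean (colour, ending at 1 and -1), 1 column per array and 1 row per gene, in 5 role groups separated by lines. Most cells are pale; the strong colours lie in Zeb2 KO replicate 3 and at Cybb, Rac2 and Lgmn.

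B2m, the light chain of classical class I molecules, had log2 intensities of 12.62, 12.65 and 12.58 in WT, while the Zeb2 KO arrays read 12.60, 12.51 and 12.94. It was at 12.62 and 12.64 with Nfil3 also lost and at 12.54 and 12.71 with Id2 also lost. The arrays of each group overlapped those of WT. The log2 fold change in Zeb2 Id2 DKO against WT was 0.01, with a 95% interval of -0.26 to 0.28 (n = 2 and 3, limma adjusted p = 0.995). The heavy chains H2-K1 and H2-D1 can be read only together. The first of the 2 probe sets they share was at 12.11, 12.14 and 12.26 in the WT arrays and 11.98, 12.01 and 12.08 in those of Zeb2 KO. Nfil3 Zeb2 DKO gave 12.17 and 12.11, and Zeb2 Id2 DKO gave 12.04 and 12.06. Its values in Zeb2 KO and Zeb2 Id2 DKO lay below all WT arrays but did not pass the test (log2 -0.15 with adjusted p = 0.762 and -0.12 with adjusted p = 0.802 against WT). The other shared set gave -0.19 [-0.37 to -0.00] in Zeb2 KO (adjusted p = 0.740) and -0.03 in Zeb2 Id2 DKO (adjusted p = 0.991).

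Nlrc5, the transactivator of class I genes, stood at 12.12, 11.69 and 11.87 in WT, and 11.53, 12.13 and 11.91 in the Zeb2 KO arrays. Arrays of Nfil3 Zeb2 DKO read 12.11 and 11.82 and the Zeb2 Id2 DKO arrays 11.89 and 11.88. The groups overlapped, and the log2 fold change in Zeb2 Id2 DKO against WT was -0.01 [-0.40 to 0.38]. The gene has 19 probe sets, and none of the 19 passed the test in any comparison (smallest limma adjusted p = 0.624) or had an unadjusted p under 0.05 (0 of 19). In Zeb2 KO replicate 3 they parted widely, from -1.29 to 0.88 log2 against the other arrays of its group. In Nfil3 Zeb2 DKO replicate 1 all 19 lay above the other array of the group, by 0.12 to 0.55. Such joint shifts were not particular to that group. Against the other arrays of their group, 17 of 19 lay above in WT replicate 1 and 0 in WT replicate 2. In Zeb2 KO replicates 1 and 2 these counts were 1 and 17.

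**Figure D2:**
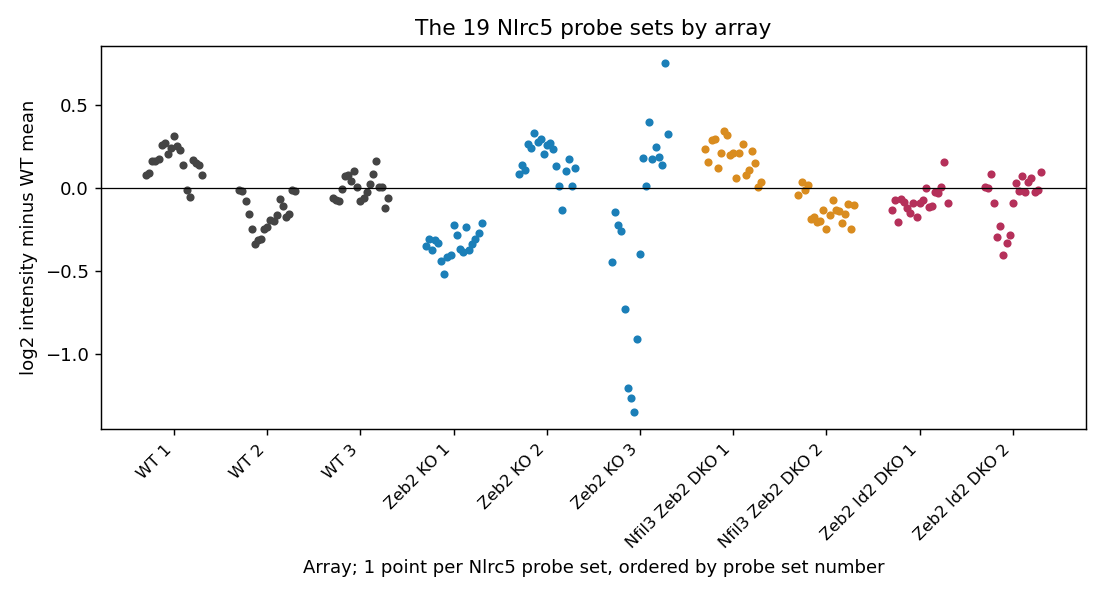
Log2 intensity of each of the 19 Nlrc5 probe sets minus its WT mean (vertical axis) by array (horizontal axis), 1 point per probe set, ordered by probe set number. The points of Zeb2 KO replicate 3 spread far more widely than those of any other array.

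No gene of peptide loading was called in any comparison in limma, and 4 of 48 values (8 genes in 6 comparisons) had an unadjusted p under 0.05. Over all genes the share of such values was 4.16% to 11.5%, depending on the comparison, and at most 1.43% were called, so a count of 0 calls among so few genes is near the background. Tap1, a subunit of the peptide transporter, stood at 12.30, 12.19 and 12.27 in WT, while the Zeb2 KO arrays read 12.28, 12.36 and 12.15. It was at 12.05 and 12.08 with Nfil3 also lost and at 12.37 and 12.41 with Id2 also lost. The Nfil3 Zeb2 DKO arrays were the lowest and the Zeb2 Id2 DKO arrays the highest, without overlap between these groups. The difference of 0.32 log2 [0.11 to 0.53] had an unadjusted p of 0.00607 and did not pass in limma (adjusted p = 0.176). Tap2, its partner, had a single outlying value: 9.95 in Zeb2 KO replicate 3, against 10.93 and 10.94 in the other arrays of that group and 10.83, 10.85 and 10.92 in WT. Pdia3, the thiol oxidoreductase of the loading complex, was at 11.34, 11.28 and 11.31 in the WT arrays and 11.46, 11.48 and 11.47 in those of Zeb2 KO. Nfil3 Zeb2 DKO gave 11.34 and 11.27, and Zeb2 Id2 DKO gave 11.15 and 11.29. The Zeb2 KO arrays were the highest and tightly grouped, and Zeb2 Id2 DKO differed from them by -0.25 log2 [-0.43 to -0.08] without passing the test (adjusted p = 0.341). The other loading genes, Tapbp and Tapbpl (peptide editors), the chaperones Calr and Canx and the trimming peptidase Erap1, had log2 fold changes between -0.17 and 0.10 against WT in every mutant group.

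No immunoproteasome gene was called in limma either, and 0 of 30 values (5 genes in 6 comparisons) had an unadjusted p under 0.05. Of all genes 4.16% to 11.5% had such a p, depending on the comparison, and at most 1.43% were called. At that share few or none would be called among 5 genes. Psmb9, an inducible catalytic subunit, stood at 12.42, 12.45 and 12.66 in WT, and 12.60, 12.49 and 12.004 in the Zeb2 KO arrays. The Nfil3 Zeb2 DKO arrays read 12.47 and 12.52 and the Zeb2 Id2 DKO arrays 12.55 and 12.56. The low value again came from Zeb2 KO replicate 3, and every group overlapped WT. Psmb8 and Psmb10, the other inducible subunits, and Psme1 and Psme2, which encode the activator of the proteasome, had log2 fold changes between -0.06 and 0.06 against WT in every mutant group. All 5 genes of this role had 95% intervals against WT between -0.45 and 0.39.

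The 15 genes of these first roles were set beside interferon-stimulated genes, since many of the former are inducible by interferon. In Zeb2 Id2 DKO 15 of 23 interferon-stimulated genes rose against WT and 0 fell, with a median log2 fold change of 0.98 and all 23 on the positive side, where 1.43% of all genes were called. Markers of plasmacytoid dendritic cells (pDC) were higher in the same arrays as a mean over 5 markers, 0.61 and 0.49 above WT. The rise was uneven: the median over the 5 was only 0.36 and 0.06 above WT. Siglech and Bst2 rose. Bst2 is in both lists, and the part of such cells in the interferon-stimulated genes was not tested. Of the 15 class I, loading and immunoproteasome genes 0 changed there (limma, smallest adjusted p = 0.738, and 0 with an unadjusted p under 0.05; with 1.43% of all genes called, few or none would be called among 15 at the background share), with a median of 0.02 and values from -0.17 (Tapbpl) to 0.13 (Tap1). The widest intervals among them, those of Tap2, reached from -0.50 to 0.57. The outlying Tap2 value of Zeb2 KO replicate 3 enters the spread behind these intervals. Averaged over genes, the interferon-stimulated list was 0.90 and 1.41 above the WT mean in the Zeb2 Id2 DKO arrays, where the 15 genes were at -0.02 and 0.03. In Nfil3 Zeb2 DKO the interferon-stimulated list was at -0.24 and -0.06 and the 15 genes at 0.02 and -0.02. Psme1, Erap1 and B2m, which have an ISRE match, were among the 15. The lists also differed in signal: in WT the 15 genes had a mean log2 level of 11.09 to 11.18 and the interferon-stimulated list 7.54 to 7.57. Any effect of signal level on these fold changes was not tested. No test of the difference between the lists was made.

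**Figure D3:**
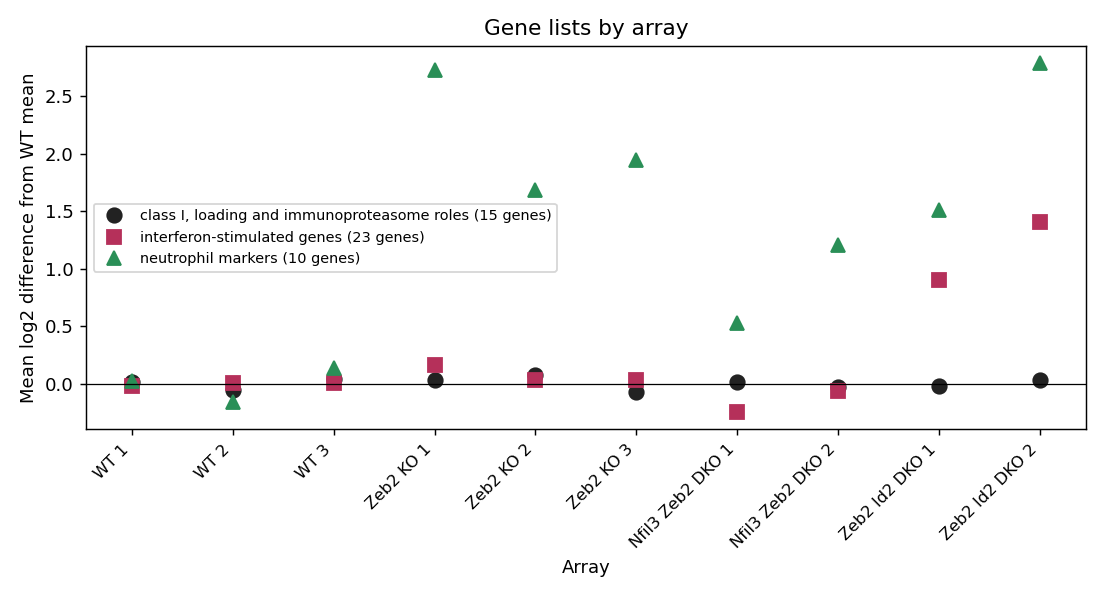
Mean log2 difference from the WT mean (vertical axis) of the 15 class I, loading and immunoproteasome genes, of 23 interferon-stimulated genes and of 10 neutrophil markers, 1 point per list and array. The 15 genes stay near 0 in all arrays, and with Id2 also lost the interferon-stimulated list is at 0.90 and 1.41.

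The calls lay in the oxidase role, where 13 of 36 values (6 genes in 6 comparisons) had an unadjusted p under 0.05. Over all genes the share of such values was 4.16% to 11.5%, depending on the comparison. The 36 values are not independent, since the comparisons share arrays. Nor were they spread over the role: in limma's F test Cyba and Tfeb had unadjusted p-values of 0.990 and 0.992. Rac2, the small GTPase that activates the phagocyte oxidase, stood at 11.02, 11.02 and 10.88 in WT, while the Zeb2 KO arrays read 11.03, 10.91 and 11.17. It was at 10.96 and 10.92 with Nfil3 also lost and at 10.33 and 10.57 with Id2 also lost. Both Zeb2 Id2 DKO arrays lay below every other array. It fell 1.44-fold against WT (log2 -0.52 ± 0.10 SE, 95% interval -0.76 to -0.29, limma adjusted p = 0.0373) and also against Zeb2 KO (log2 -0.59 [-0.82 to -0.35], adjusted p = 0.0430). Against Nfil3 Zeb2 DKO the value was -0.49 [-0.74 to -0.24] and did not pass (adjusted p = 0.0890). The call against WT was lost in 8 of the 10 fits that each left out 1 array, all but those without Zeb2 KO replicate 2 or 3, and the adjusted p ran from 0.00992 (without Zeb2 KO replicate 3) to 0.399. Over the other alternatives it ran from 0.0322 to 0.119, and the call was lost in 2 of these 8, among them the fit with arrays centred on their median (0.0512). The call against Zeb2 KO was lost in 9 of the 10, where the adjusted p ran from 0.0448 (without Zeb2 KO replicate 3) to 0.517, and in 4 of the 8 other alternatives, with adjusted p up to 0.323 in a fit to these groups alone.

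Ncf1, the cytosolic organizer of the oxidase (p47phox), was at 9.29, 9.35 and 9.37 in the WT arrays and 9.16, 9.19 and 9.27 in those of Zeb2 KO. Nfil3 Zeb2 DKO gave 9.09 and 8.98, and Zeb2 Id2 DKO gave 9.62 and 9.55. By level the groups ran from Zeb2 Id2 DKO at the top through WT and Zeb2 KO to Nfil3 Zeb2 DKO, and no neighbours in this order overlapped. Ncf1 was 1.46-fold higher in Zeb2 Id2 DKO than in Nfil3 Zeb2 DKO (log2 0.55 ± 0.09 SE, 95% interval 0.35 to 0.75, limma adjusted p = 0.0176). The difference from Zeb2 KO was 0.38 (adjusted p = 0.0956) and that from WT 0.25 (adjusted p = 0.239). Leaving out any 1 of the arrays of the pair compared removed the call, with limma adjusted p up to 0.158, and quantile normalization gave 0.0612, the highest over the 8 other alternatives.

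Cybb encodes the catalytic subunit of the oxidase (gp91phox), and its highest and lowest groups were those of Ncf1. It stood at 9.03, 8.63 and 8.73 in WT, and 8.76, 8.58 and 7.97 in the Zeb2 KO arrays. Arrays of Nfil3 Zeb2 DKO read 8.27 and 8.01 and the Zeb2 Id2 DKO arrays 8.87 and 9.47. The Nfil3 Zeb2 DKO arrays lay below all WT arrays and below both Zeb2 Id2 DKO arrays. The difference between Zeb2 Id2 DKO and Nfil3 Zeb2 DKO was 1.03 log2 [0.46 to 1.60] with an unadjusted p of 0.00240, which did not pass in limma (adjusted p = 0.111). Without Zeb2 KO replicate 3, which enters only the spread, it passed (adjusted p = 0.0169). Against WT, Nfil3 Zeb2 DKO gave -0.65 [-1.18 to -0.13] (adjusted p = 1.0).

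The remaining genes of this role were not called. Ncf4 (p40phox) was at 9.74, 9.84 and 10.07 in WT, while the Zeb2 KO arrays read 10.05, 9.85 and 9.85. It was at 9.91 and 9.91 with Nfil3 also lost and at 9.44 and 9.68 with Id2 also lost. Both Zeb2 Id2 DKO arrays were below all others, but at -0.33 [-0.59 to -0.06] against WT it was not called (adjusted p = 0.316). Cyba, which encodes the membrane partner p22phox, lay between 12.21 and 12.45 in every array. Tfeb, a transcription factor of lysosomal genes, ranged from 7.40 to 8.10 within Zeb2 KO, which covers its value in every other array.

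**Figure D4:**
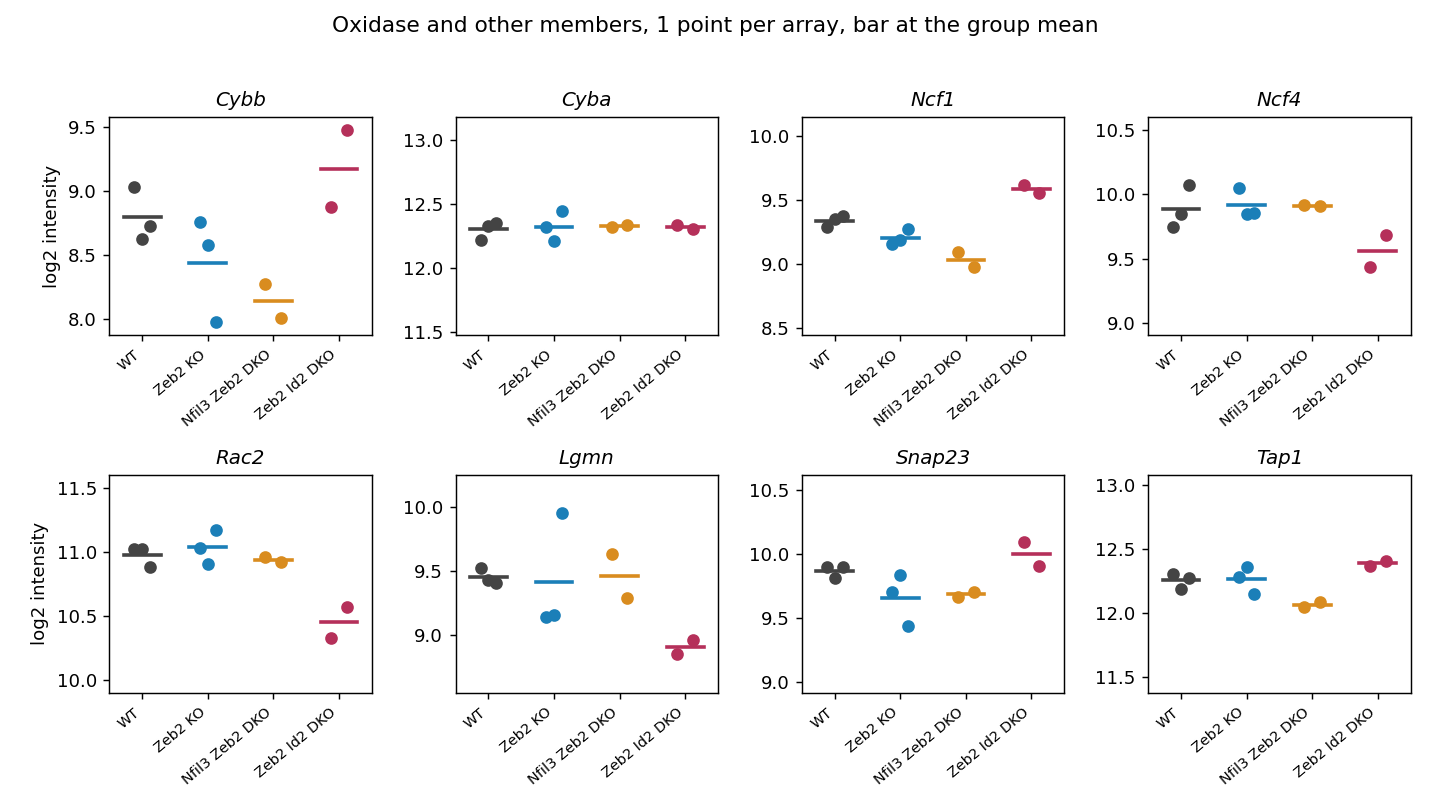
Log2 intensity (vertical axis) of 8 members by genotype (horizontal axis), 1 point per array with a bar at the group mean; the axes do not start at 0. Rac2 is lowest and Ncf1 highest in Zeb2 Id2 DKO, and Cyba is between 12.21 and 12.45 throughout.

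Markers of other cells also differed between these groups, and phagocytes express these oxidase genes. The mean log2 level of 10 neutrophil markers ranged from 6.85 to 7.15 over the WT arrays and from 8.70 to 9.74 over those of Zeb2 KO. With Nfil3 also lost it ranged from 7.55 to 8.22, and with Id2 also lost from 8.52 to 9.80. In Zeb2 Id2 DKO against WT 7 of the 10 rose, where 1.43% of all genes were called. In Zeb2 KO against WT 1 did, where 0.0201% were called, though the levels of these mutant groups overlapped. The 1.43% is also the share to set beside the Zeb2 Id2 DKO calls against WT below. Between Zeb2 Id2 DKO and Zeb2 KO, where Rac2 was called, 0 of 10 passed in limma (0.497% of all genes). The median there was -0.09, and 1 had an unadjusted p under 0.05 (7.35% of all genes). Between Zeb2 Id2 DKO and Nfil3 Zeb2 DKO, where Ncf1 was called, 0 of 10 passed (0.792% of all genes). The median there was 1.49, and 7 had an unadjusted p under 0.05 (11.5% of all genes). The mean of 5 monocyte markers was 7.86 to 7.90 in Zeb2 Id2 DKO against 7.16 to 7.63 in all other arrays. The mean of 7 T cell markers was lowest in Zeb2 Id2 DKO, at 5.81 in both arrays against 5.99 to 6.51 in all others. Of these Cd3d, Cd3g and Lat fell against WT. Relative to WT the mean over all 7 was -0.54 and -0.53 in Zeb2 Id2 DKO, and the median over them -0.33 and -0.56. In Zeb2 KO the mean was -0.35, -0.33 and -0.27 and the median -0.39, -0.37 and -0.37. The mean of 6 NK cell markers was 5.53 and 5.56 in Zeb2 Id2 DKO against 5.68 to 6.33 in all others, and 1 of 6, Il2rb, fell. Of 5 erythroid markers 2 rose (Car2 and Hemgn), with means of 7.13 and 7.28 against 6.17 to 6.87 in all others. The part of such cells in the values of Ncf1, Cybb and Rac2 was not tested.

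Genes of traffic and antigen handling were not called in any comparison in limma, and 5 of 54 values (9 genes in 6 comparisons) had an unadjusted p under 0.05. Over all genes that share was 4.16% to 11.5%, depending on the comparison. Wdfy4, which cDC1s need for cross-presentation of cell-associated antigen, stood at 12.97, 12.82 and 12.87 in the WT arrays and 12.89, 12.99 and 12.57 in those of Zeb2 KO. Nfil3 Zeb2 DKO gave 12.90 and 12.89, and Zeb2 Id2 DKO gave 12.95 and 12.93. Its log2 fold change in Zeb2 Id2 DKO against WT was 0.05 [-0.21 to 0.31], and each group overlapped WT. Sec22b, a SNARE of ER to phagosome traffic, was at 8.35, 8.36 and 8.60 in WT, and 8.53, 8.62 and 8.13 in the Zeb2 KO arrays. The Nfil3 Zeb2 DKO arrays read 8.65 and 8.42 and the Zeb2 Id2 DKO arrays 8.20 and 8.46. Here too the groups overlapped.

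Lgmn, an asparagine endopeptidase of endosomes, gave the lowest value of this role. It was at 9.52, 9.42 and 9.40 in WT, while the Zeb2 KO arrays read 9.14, 9.15 and 9.95. It was at 9.63 and 9.29 with Nfil3 also lost and at 8.85 and 8.96 with Id2 also lost. Both Zeb2 Id2 DKO arrays lay below every other array, and the log2 fold change against WT was -0.54 [-1.02 to -0.07] (adjusted p = 0.374). Without Zeb2 KO replicate 3 that value passed (adjusted p = 0.0143). The mean of 7 red pulp macrophage markers was low in the same arrays: relative to WT it was -0.61 and -0.54 in Zeb2 Id2 DKO, where Vcam1 and Hpgd fell, and -0.65, -0.61 and 0.02 in Zeb2 KO replicates 1, 2 and 3. In Nfil3 Zeb2 DKO it was -0.13 and -0.07. The part of such cells in the Lgmn values was not tested. Snap23, a plasma membrane SNARE, was at 9.89, 9.81 and 9.90 in the WT arrays and 9.70, 9.83 and 9.44 in those of Zeb2 KO. Nfil3 Zeb2 DKO gave 9.66 and 9.70, and Zeb2 Id2 DKO gave 10.10 and 9.90. It differed by 0.34 [0.09 to 0.60] between Zeb2 Id2 DKO and Zeb2 KO and did not pass (adjusted p = 0.424). The reductase Ifi30 ranged from 11.44 to 12.41 in Zeb2 KO, wider than in the other groups. The remaining genes of this role, Sec61a1, Sec61b, Vamp8 and Vcp, had log2 fold changes between -0.11 and 0.08 against WT in every mutant group.

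**Figure D5:**
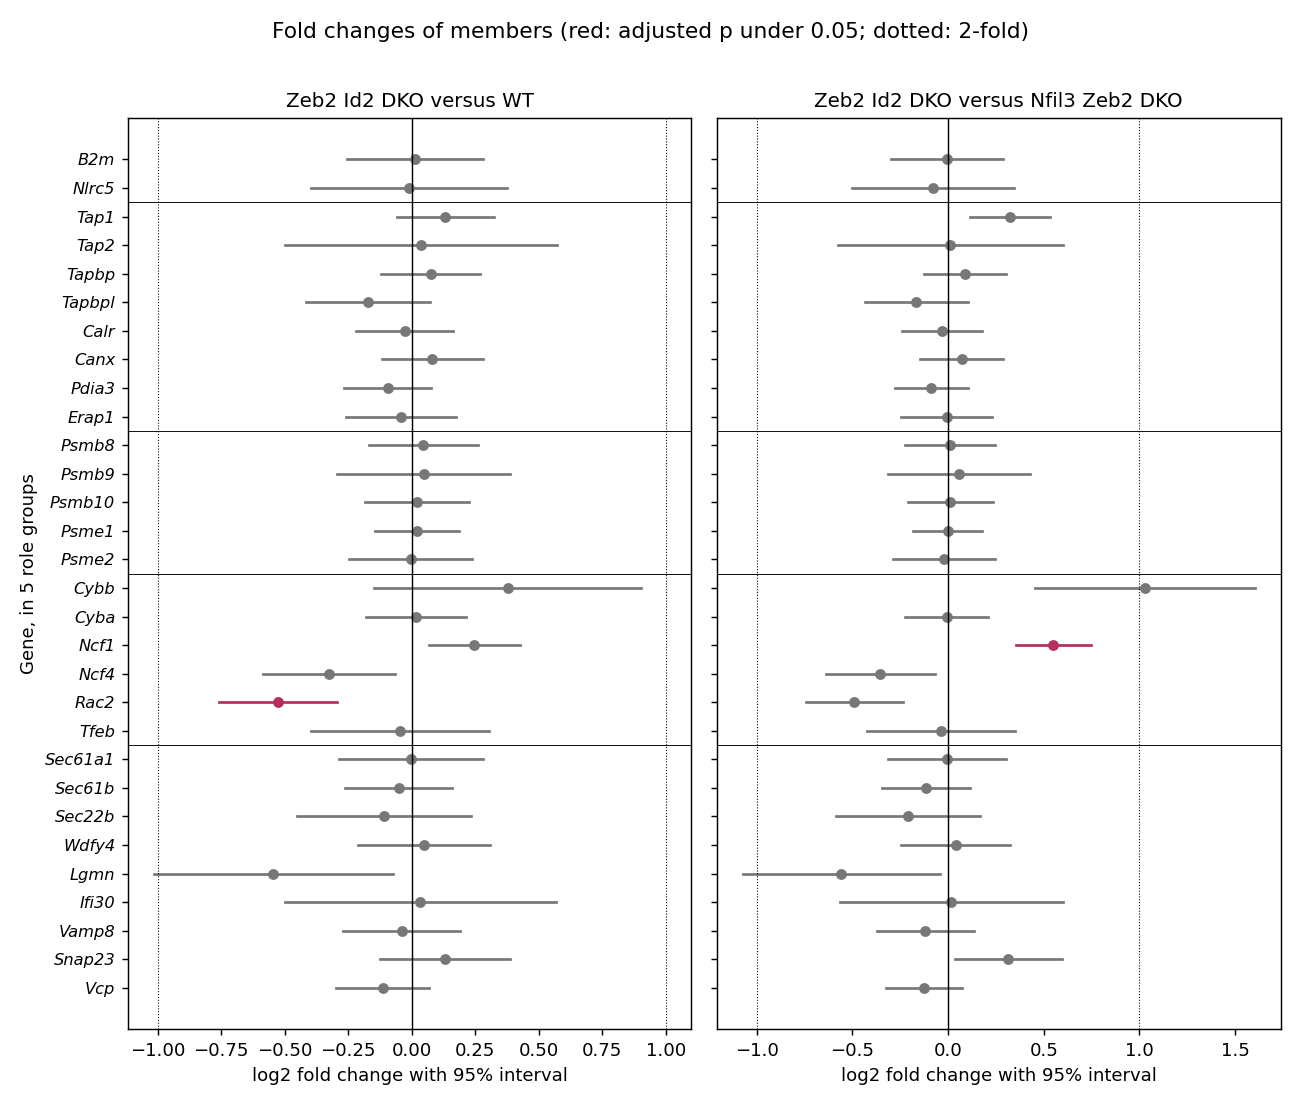
Log2 fold change (horizontal axis) with its 95% interval for each of the 30 members (vertical axis, 5 role groups), Zeb2 Id2 DKO against WT on the left and against Nfil3 Zeb2 DKO on the right; dotted lines mark 2-fold and red marks an adjusted p under 0.05. Rac2 is red on the left and Ncf1 on the right.

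Other genes of the same pathways were read from wider lists. Of 35 constitutive proteasome genes, 12 further genes of loading and ER quality control, 5 further oxidase genes, 16 SNARE and ER-phagosome traffic genes, 11 endosomal proteases and 9 uptake receptors, 0 were called in any of the 6 comparisons by limma. Of all genes 0.00502% to 1.43% were called, depending on the comparison. Unadjusted p-values under 0.05 over these comparisons numbered 2 of 210 for the constitutive proteasome, 3 of 72 for loading, 4 of 30 for the oxidase, 2 of 96 for the SNAREs, 10 of 66 for the proteases and 8 of 54 for the receptors. Over all genes that share was 4.16% to 11.5%, depending on the comparison. Of 14 regulators of class I and interferon responses, Stat2 was called, a component of the complex that binds ISREs. In that list 15 of 84 values had an unadjusted p under 0.05. Stat2 stood at 9.85, 9.75 and 9.91 in WT, and 10.32, 10.23 and 9.95 in the Zeb2 KO arrays. Arrays of Nfil3 Zeb2 DKO read 9.86 and 9.82 and the Zeb2 Id2 DKO arrays 10.80 and 10.82. The Zeb2 Id2 DKO arrays were the highest of all, and Stat2 rose by 0.97 log2 [0.73 to 1.21] against WT (adjusted p = 0.0018).

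Of 9 further class I family genes, H2-M2, a non-classical class I gene, was called. In that list 8 of 54 values over the 6 comparisons had an unadjusted p under 0.05, against 4.16% to 11.5% of all genes. H2-M2 was read array by array. It stood at 7.75, 8.56 and 8.14 in WT, while the Zeb2 KO arrays read 6.76, 6.94 and 7.58. It was at 8.38 and 8.04 with Nfil3 also lost and at 6.49 and 6.53 with Id2 also lost. The Zeb2 Id2 DKO arrays were the lowest, and the Zeb2 KO arrays also lay below all WT arrays. Against WT, H2-M2 fell 3.11-fold in Zeb2 Id2 DKO (log2 -1.64 [-2.20 to -1.07], limma adjusted p = 0.0124), and it differed by -1.70 from Nfil3 Zeb2 DKO (adjusted p = 0.0215).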

How the data were processed

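RNA of sorted splenic cDC1s was amplified, biotin-labelled and hybridised to Affymetrix arrays. Per the submitters' processing notes the authors used Affymetrix Expression Console with RMA, and the deposited values are linear intensities. The build and annotation are not given in the sources used here. Log2 was taken, the probe set with the highest mean was kept per gene, and limma 3.58.1 (R 4.3.3) fitted a mean per genotype to all 10 arrays. P-values were adjusted by Benjamini-Hochberg over 19938 genes in each comparison. The shared H2-K1 and H2-D1 probe sets come from a fit over all 28853 probe sets, added after seeing the data. The median 95% half-width of a log2 fold change was 0.22 to 0.26, limited by the number of arrays. Array by array, the rule named members called, the smallest F-test p of each role, and Tap1, B2m, Psmb9, Nlrc5, Wdfy4, Cybb and Sec22b. Pdia3, Tap2, Ncf4, Cyba, Tfeb, Lgmn and Ifi30 were named after their values were seen. Members and lists were chosen with earlier results of these data known. Alternatives were other normalizations, probe set and variance settings, a replicate block and each array left out. The test was checked on simulated data with changes of 2-fold or more. Those are larger than the changes of Rac2 and Ncf1, so recovery of changes of that size was not checked.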

Additional observations from a re-analysis of the deposited data

Results flagged for a closer look

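Ncf1 differed between the effects of the 2 further losses. On the Zeb2 KO background, Zeb2 Id2 DKO minus Nfil3 Zeb2 DKO was 0.55 log2 (limma adjusted p = 0.0176). Both Zeb2 Id2 DKO arrays lay above both Nfil3 Zeb2 DKO arrays, and 52.4% of all genes had no overlap between these groups. With 1 array left out the difference ran from 0.49 to 0.61. As given above, leaving out any 1 of the arrays compared removed the call. Quantile normalization gave a limma adjusted p of 0.0612, which did not pass.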

How the results depend on the processing

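The values called, those of Rac2 and Ncf1, kept their direction under every alternative run. Values near 0 that were not called could change sign with 1 array left out, such as B2m (0.07, lowest -0.06) and Psmb9 (-0.14, highest 0.04) in Zeb2 KO against WT. The samples share only replicate numbers (1 of 13 same-numbered pairs had a correlation over 0.1, from -0.31 to 0.16); with the replicate block 0 members changed in Zeb2 Id2 DKO against WT and 0 against Zeb2 KO, with limma adjusted p of 0.119 and 0.155 for Rac2. Centring arrays on their median also gave 0 members in each of these comparisons, 1 member in the F test and a median over members of 0.0494 in Zeb2 Id2 DKO against Nfil3 Zeb2 DKO. Quantile normalization gave 0 in that comparison. Testing all probe sets, added after seeing the data, gave 0 in Zeb2 Id2 DKO against Zeb2 KO. A fit to only the groups compared gave 2 against WT, 0 against Zeb2 KO and 4 against Nfil3 Zeb2 DKO. Leaving out 1 array at a time gave 0 to 2, 0 to 2 and 0 to 4 members in these comparisons, 0 to 3 in the F test, and a median of -0.0274 to 0.0181 in Nfil3 Zeb2 DKO against WT. The upper ends, 2, 2, 4 and 3, came without Zeb2 KO replicate 3. Without it Rac2 and Ncf1 kept their calls, and Lgmn and Cybb were gained. The causes were not tested. Over all genes, calls in Zeb2 KO against WT went from 4 to 165 and in Zeb2 Id2 DKO against WT from 286 to 760 without that array.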
